A study of Mus musculus with 33 samples.

Results

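Alas2, Car1, Car2, Slc4a1, Nfe2, Klf1 and Gata1 are 7 genes used as marks of the red cell lineage, and they were read by symbol from a table of 19169 genes measured in 33 mouse liver libraries of polyadenylated RNA. KI mice carried 1 tamoxifen-inducible mutant copy of Nlrp3, labelled Nlrp3A350V/+CreT, which encodes an altered sensor protein of the inflammasome, and WT mice were wild type. For 6 weeks the mice ate chow holding GS-444217, which blocks the stress kinase ASK1 (ASK1i), or control chow with placebo (control). There were 10 KI ASK1i libraries (5 female, 5 male), 5 KI control libraries (1 female, 4 male), 8 WT ASK1i libraries (4 female, 4 male) and 10 WT control libraries (7 female, 3 male). The labels give neither the age of the mice nor the promoter behind the inducible Cre, leave unsaid whether WT mice carried it or received tamoxifen, and do not tie libraries to individual mice. The p-values below therefore measure the spread between libraries.

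In adult mice red cells mature in bone marrow and spleen, and the liver, the site of red cell formation in the fetus, receives them with its blood. Maturing red cells build haemoglobin and haem, fill with carbonic anhydrase and place an anion exchanger in their membrane, so that carbon dioxide can travel as bicarbonate. Gata1 and Klf1 are transcription factors that switch on these genes by binding GATA and CACCC letters in DNA. Several of the 7 genes are used elsewhere too. Gata1 also works in megakaryocytes, mast cells and eosinophils, Nfe2 in megakaryocytes and other myeloid cells, Car2 in many tissues, and Car1 in colon. In whole liver RNA, fewer cells of a type and less RNA per cell cannot be told apart.

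The promoters of 3 of the 7 genes were in the RefSeq table of build GRCm38.p6. They are shown because GATA and CACCC are the letters that Gata1 and Klf1 proteins recognise. Each line gives the 250 bases before RefSeq's start of the gene, which for Klf1 and Gata1 lies inside the longer gene span given below, 5′ to 3′ on the gene's own strand, and capitals mark GATA and CACCC or their reverse complements, TATC and GGGTG. The windows are chrX:7967911-7968160 on the minus strand for Gata1, chr8:84901732-84901981 on the plus strand for Klf1 and chrX:150547167-150547416 on the plus strand for Alas2.
Gata1: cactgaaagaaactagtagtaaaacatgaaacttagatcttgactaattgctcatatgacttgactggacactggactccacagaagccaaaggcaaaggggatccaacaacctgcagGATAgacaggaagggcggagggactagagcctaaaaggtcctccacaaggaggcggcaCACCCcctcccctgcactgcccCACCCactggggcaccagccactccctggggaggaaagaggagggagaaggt
Klf1: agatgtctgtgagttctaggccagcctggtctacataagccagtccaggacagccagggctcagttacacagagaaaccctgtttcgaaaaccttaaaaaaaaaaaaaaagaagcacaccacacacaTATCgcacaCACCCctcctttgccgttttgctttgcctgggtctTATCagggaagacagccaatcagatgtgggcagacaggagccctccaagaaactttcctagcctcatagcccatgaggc
Alas2: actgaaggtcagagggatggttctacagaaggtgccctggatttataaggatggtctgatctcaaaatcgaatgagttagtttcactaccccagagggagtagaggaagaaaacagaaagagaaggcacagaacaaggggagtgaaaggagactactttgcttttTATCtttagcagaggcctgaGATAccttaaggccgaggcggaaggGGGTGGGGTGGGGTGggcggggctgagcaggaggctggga
GATA began 132 bases before the start of Gata1, 123 and 79 bases before that of Klf1, and 85 and 65 bases before that of Alas2, counting the first base of the match on the printed strand. CACCC began 74 and 52 bases before the start of Gata1, 114 before that of Klf1, and 40, 35 and 30 before that of Alas2. Such letters are common: on either strand, GATA was in 53.6% and CACCC in 52.0% of 32851 promoters of this length. The longer GATAA, which contains GATA and was in 22.6% of promoters, was present once in the Klf1 window and once in the Alas2 window. Neither TGAGTCA, the core that NF-E2 binds (4.5% of promoters), nor CAGCTG, an E-box (13.0%), was in the 3 windows on either strand. A match of letters is a description and not a bound site.

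Total counts per library ran from 28099685 to 40008114. Nlrp3 transcripts, which do not separate the mutant from the normal copy, stood between 5.51 and 15.6 CPM (counts per 1000000 counts, after TMM scaling) in 14 of 15 KI libraries and between 1.62 and 4.96 CPM in all 18 WT libraries. The library labelled KI ASK1i replicate 5 had 2.10 CPM, and on the first principal component it lay at -59.2, among the WT libraries. It stays in every value unless a sentence leaves it out. Titles also fall into a numbered set and a set numbered with P, and carry an L code of unstated meaning. No L code held both KI control and WT control libraries.

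Compared per kilobase of exon, the order of the 7 genes differed between genotypes. In KI control liver Car2 averaged 10.0 ± 1.94 CPM per kb (SD, n = 5), Alas2 5.75 ± 1.54, Nfe2 3.24 ± 0.956, Klf1 1.40 ± 0.239, Gata1 0.130 ± 0.138, Slc4a1 0.0917 ± 0.0438 and Car1 0.0592 ± 0.0984. In WT control liver Car2 averaged 15.5 ± 6.16 CPM per kb (SD, n = 10), Alas2 8.44 ± 3.74, Car1 2.83 ± 1.72, Klf1 2.37 ± 0.707, Nfe2 0.182 ± 0.1002, Slc4a1 0.142 ± 0.0524 and Gata1 0.0253 ± 0.0384. Car2 and Alas2 headed both orders. Nfe2 came next in KI control, where Car1 was last, and Car1 came next in WT control, where Nfe2 stood below Klf1. The ranges of neighbours in these orders overlapped, apart from Nfe2 over Klf1 and Klf1 over Gata1 in KI control, and Klf1 over Nfe2 in WT control. In KI ASK1i the means were 11.4 CPM per kb for Car2, 6.35 for Alas2, 3.90 for Nfe2, 1.71 for Klf1, 0.116 for Car1, 0.111 for Slc4a1 and 0.0679 for Gata1. In WT ASK1i they were 20.2 for Car2, 6.93 for Alas2, 3.37 for Car1, 3.01 for Klf1, 0.974 for Nfe2, 0.0444 for Slc4a1 and 0.00625 for Gata1.

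**Figure D1:**
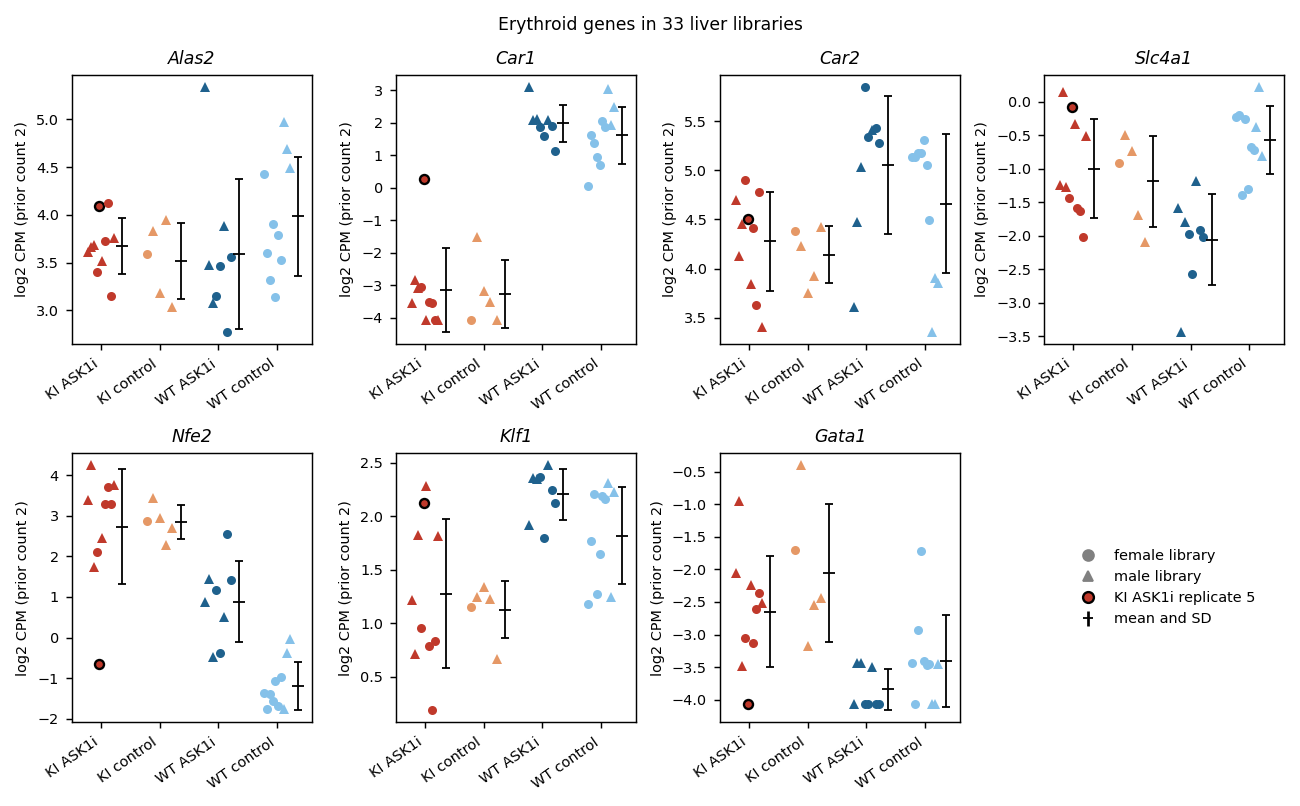
Log2 CPM (prior count 2) of the 7 genes in each library, with groups from left to right KI ASK1i, KI control, WT ASK1i and WT control; circles are female and triangles male libraries, the black-edged point is KI ASK1i replicate 5, and bars give the mean and SD. Within each diet Car1 separates the genotypes downwards and Nfe2 mostly upwards, whereas Alas2 overlaps in all 4 groups.

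The first comparison set KI control against WT control and asked how the mutant allele goes with these genes on plain chow. The 7 genes did not move as one. Of 6 genes with enough counts to test, 1 rose (Nfe2) and 3 fell (Car1, Klf1, Alas2), and Slc4a1 and Car2 did not pass. Over all 14934 genes tested, 56.7% passed in either direction, 27.8% upwards and 28.9% downwards. The median log2 fold change of the 6 genes was -0.81, against -0.03 over all genes (edgeR quasi-likelihood test, Benjamini-Hochberg adjusted p under 0.05 counted as passing here and below).

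Nfe2 (gene ID 18022; chr15:103248217-103255416, minus strand, mm10) encodes the tissue-specific subunit of NF-E2, a factor that drives globin genes in red cell precursors and platelet release in megakaryocytes. It measured 7.24, 10.7, 7.66, 4.81 and 6.39 CPM in the KI control libraries, against a lowest of 0.236, a median of 0.326 and a highest of 0.922 CPM in WT control. All 5 KI control libraries stood above all 10 WT control libraries, a log2 fold change of 4.14 (SE 0.46, edgeR adjusted p = 2.87e-08). It passed under every one of 15 other settings.

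Klf1 (16596; chr8:84901927-84905295, plus strand) activates adult beta-globin. It measured 2.16, 2.32, 2.46, 2.28 and 1.52 CPM in KI control, against 2.21, 3.88 and 4.89 CPM (lowest, median and highest) in WT control. The groups overlapped, with 2 KI control libraries below all of WT control and all 5 below the WT control mean. Its log2 fold change was -0.89 (SE 0.27, edgeR adjusted p = 0.00535). With the L code in place of the title set it was -0.67 and no longer passed (edgeR adjusted p = 0.205, and 0.00159 to 0.366 over 48 alternatives).

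Gata1 (14460; chrX:7959259-7976574, minus strand), the master regulator of the lineage, had too few counts for the test. Its counts summed to 49 over 5 KI control libraries and 14 over 10 WT control libraries, a ratio of 5.49 per read (95% exact interval 2.98 to 10.8, counting error only). KI control replicate 2 held 29 of the 49 counts at 0.700 CPM, and the ratio was 2.85 (1.37 to 6.11) without it. KI control libraries had 0.0513 to 0.700 CPM, overlapping the 0 to 0.246 CPM of WT control.

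Alas2 (11656; chrX:150547416-150570622, plus strand) encodes the erythroid form of the first enzyme of haem synthesis. It measured 12.0, 14.2, 9.00, 15.3 and 8.11 CPM in KI control, against 8.78, 14.3 and 31.4 CPM (lowest, median and highest) in WT control. The groups overlapped, and all 5 KI control libraries lay below the WT control mean of 17.2 ± 7.62 CPM. The log2 fold change of -0.74 (SE 0.31) passed narrowly (edgeR adjusted p = 0.0430) and passed in only 6 of 15 alternative settings. Leaving out a single library ended the call for 16 of the 33 libraries, with log2 fold changes from -0.89 to -0.58 and an edgeR adjusted p of up to 0.143. On the plus strand, Alas2 lies within the span of Apex2 on the minus strand, and no source used here says whether the counting used strand.

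Car1 (12346; chr3:14766213-14808365, minus strand) encodes a cytosolic carbonic anhydrase of the red cell. A processed pseudogene, Gm16399, overlaps it by 219 bases on the same strand. Car1 had 0, 12, 2, 1 and 0 counts in the KI control libraries, or 0 to 0.289 CPM. WT control libraries had 0.990, 3.29 and 8.23 CPM (lowest, median and highest), with at least 30 counts in each. All 5 KI control libraries lay below all 10 WT control libraries, at a log2 fold change of -5.74 (SE 0.89, edgeR adjusted p = 4.02e-06). As summed counts, the KI control level was 0.0219 of the WT control level (0.0122 to 0.0363), and 0.00558 (0.00115 to 0.0163) without KI control replicate 2, which held 12 of 15 counts.

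Car2 (12349; chr3:14886425-14900770, plus strand) encodes a faster and more widely used carbonic anhydrase. It measured 20.8, 18.7, 13.4, 15.2 and 21.3 CPM in KI control, against 10.2, 34.0 and 39.6 CPM (lowest, median and highest) in WT control. KI control lay inside the WT control range, and the log2 fold change was -0.14 (SE 0.26, edgeR adjusted p = 0.660). Slc4a1 (20533; chr11:102348819-102365281, minus strand) encodes band 3, the anion exchanger and membrane anchor of red cells. It measured 0.470, 0.651, 0.538, 0.250 and 0.175 CPM in KI control, against 0.323, 0.637 and 1.11 CPM in WT control. The groups overlapped, and its log2 fold change was -0.87 (SE 0.39, edgeR adjusted p = 0.0571). Without KI ASK1i replicate 5 in the shared fit it was -0.92 and passed (edgeR adjusted p = 0.0342, and 0.0311 to 0.775 over 47 alternatives).

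**Figure D2:**
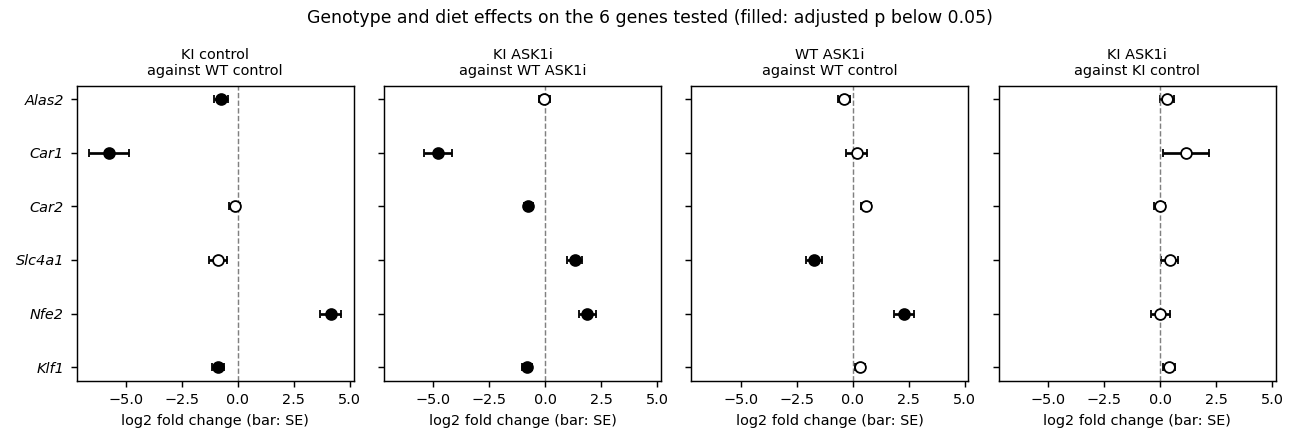
Log2 fold changes with SE of the 6 genes tested, in 4 comparisons; filled points passed an adjusted p of 0.05. Car1 and Nfe2 lie farthest from 0 in both genotype comparisons, Slc4a1 changes side between them, and no gene is filled for KI ASK1i against KI control.

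The second comparison set KI ASK1i against WT ASK1i, the same genotype contrast in mice fed the inhibitor. Of the 6 genes 2 rose (Nfe2, Slc4a1) and 3 fell (Car1, Car2, Klf1), and Alas2 did not pass. Over all genes 59.1% passed, 30.3% upwards and 28.8% downwards. Car1, Klf1 and Nfe2 passed in the same direction on both diets, in comparisons that share no library. Both comparisons came from the shared fit over all libraries, with the same estimate of spread and the same sex and title set terms. These comparisons are therefore not independent. The same 5 genes passed without KI ASK1i replicate 5.

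Nfe2 had a lowest value of 0.579, a median of 9.72 and a highest of 18.9 CPM in KI ASK1i, against 0.653, 1.99 and 5.78 CPM in WT ASK1i. KI ASK1i replicate 5 was the lowest of these 18 libraries, and 6 of 10 KI ASK1i libraries stood above all of WT ASK1i. Its log2 fold change was 1.87 (SE 0.38, edgeR adjusted p = 0.000113), and 2.04 (SE 0.32, edgeR adjusted p = 2.34e-06) without replicate 5. Klf1 measured 1.08, 2.07 and 4.81 CPM in KI ASK1i, against a lowest of 3.404, a median of 4.86 and a highest of 5.51 CPM in WT ASK1i. The groups overlapped, with 6 of 10 KI ASK1i libraries below all of WT ASK1i, and the log2 fold change was -0.81 (SE 0.21, edgeR adjusted p = 0.00152).

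Gata1 counts summed to 47 over 10 KI ASK1i libraries and 3 over 8 WT ASK1i libraries, a ratio of 11.6 per read (95% exact interval 3.74 to 58.4), or 12.8 (4.12 to 64.3) without replicate 5. No count was found in 1 KI ASK1i library, replicate 5, and in 5 WT ASK1i libraries. Alas2 measured 8.84, 12.7 and 17.4 CPM in KI ASK1i and 6.78, 11.0 and 40.5 CPM in WT ASK1i, and the ranges overlapped. Its log2 fold change was -0.03 (SE 0.26, edgeR adjusted p = 0.920). Without WT ASK1i replicate 2, the library at 40.5 CPM, it was 0.30.

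Car1 measured 0, 0.0268 and 1.16 CPM in KI ASK1i, against 2.12, 3.92 and 8.58 CPM in WT ASK1i. All 10 KI ASK1i libraries lay below all 8 WT ASK1i libraries, and replicate 5 held 38 of the 48 KI ASK1i counts. Its log2 fold change was -4.77 (SE 0.62, edgeR adjusted p = 1.85e-07), and -6.97 (SE 0.47, edgeR adjusted p = 1.46e-13) without replicate 5. Car2 measured 10.6, 21.6 and 29.9 CPM in KI ASK1i, against 12.2, 39.6 and 57.5 CPM in WT ASK1i. The ranges overlapped, and the log2 fold change was -0.76 (SE 0.20, edgeR adjusted p = 0.00182).

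Slc4a1 measured 0.188, 0.359 and 1.05 CPM in KI ASK1i, against 0.0332, 0.200 and 0.381 CPM in WT ASK1i. The ranges overlapped, with 4 of 10 KI ASK1i libraries above all of WT ASK1i, and replicate 5 was second highest at 0.884 CPM. The log2 fold change was 1.31 (SE 0.35, edgeR adjusted p = 0.00202), and 1.13 (SE 0.35) without replicate 5. Among libraries of the L code L1 alone, 4 KI ASK1i against 2 WT ASK1i, it was 0.30 (SE 0.57, edgeR adjusted p = 0.710, and 0.000562 to 0.710 over 48 alternatives). Car1, Car2, Klf1 and Nfe2 passed there. Slc4a1 counts were low throughout, 7 to 39 per library in KI ASK1i and 1 to 13 in WT ASK1i.

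The third comparison set WT ASK1i against WT control and asked what the inhibitor goes with in the absence of the mutant allele. It shares the WT control libraries with the first comparison and the WT ASK1i libraries with the second. Nfe2 rose and Slc4a1 fell, and the other 4 genes tested did not pass. Only 1.4% of all genes passed in this comparison, 1.13% upwards and 0.268% downwards. Nfe2 measured 0.653, 1.99 and 5.78 CPM (lowest, median and highest) in WT ASK1i, against 0.236, 0.326 and 0.922 CPM in WT control. Of 8 WT ASK1i libraries 6 stood above all of WT control, and all 8 above its mean. Nfe2 was higher by a log2 fold change of 2.29 (SE 0.43, edgeR adjusted p = 0.00326).

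Slc4a1 measured 0.0332, 0.200 and 0.381 CPM in WT ASK1i, against 0.323, 0.637 and 1.11 CPM in WT control. Of 8 WT ASK1i libraries 7 lay below all of WT control. Slc4a1 was lower, at a log2 fold change of -1.74 (SE 0.35, edgeR adjusted p = 0.00664). The L codes divide this comparison too, and L6 alone held 4 libraries of each group. Within L6, Nfe2 measured 0.653 to 2.65 CPM in WT ASK1i against 0.236 to 0.448 CPM in WT control, and Slc4a1 0.0332 to 0.275 CPM against 0.544 to 0.774 CPM. Neither pair of ranges overlapped. The log2 fold changes were 2.76 for Nfe2 and -1.84 for Slc4a1, as large as over all libraries, though neither passed there (edgeR adjusted p = 0.150 and 0.443), nor with the L code in the model (1.88 and -1.60, edgeR adjusted p = 0.271 and 0.156). Over all alternatives, the values ran from 1.65 to 2.76 for Nfe2 and from -1.97 to -1.40 for Slc4a1, with adjusted p from 3.44e-06 and 0.000247 up to 1 for each.

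No gene on the lists of other blood cells passed in edgeR in this comparison. The 12 neutrophil genes summed to 6.90 to 33.4 CPM in WT ASK1i and 11.1 to 30.7 CPM in WT control. Their median log2 fold change was -1.01, and with their sum added to the model Nfe2 was at 2.62 (edgeR adjusted p = 1.55e-05) and Slc4a1 at -1.79 (edgeR adjusted p = 0.00487), in a fit chosen after seeing the data. DESeq2 passed 1 of the 12. The edgeR fit with the neutrophil sum used 1 slope over all 33 libraries, and KI control libraries reached 3946 CPM. It therefore cannot single out WT libraries, and the part of neutrophils in the Nfe2 value was not tested. Haemoglobin genes summed to 209 to 674 CPM in WT ASK1i and 331 to 1039 CPM in WT control, and none of 3 tested passed. The other log2 fold changes were 0.60 for Car2, 0.32 for Klf1, 0.17 for Car1 and -0.39 for Alas2 (edgeR adjusted p from 0.152 to 0.919). Summed Gata1 counts were 3 over 8 WT ASK1i libraries and 14 over 10 WT control libraries, a ratio of 0.246 (0.0454 to 0.883), with 7 of the 14 in WT control replicate 4.

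The fourth comparison, KI ASK1i against KI control, asked whether the inhibitor goes with a change in mutant liver. None of the 6 genes passed, in a comparison in which 0.0536% of all genes did (edgeR adjusted p of at least 0.558 for the 6, with 1539 of all genes at an unadjusted p under 0.05). Their log2 fold changes ran from -0.02 to 1.14, and Nfe2 was at 0.02 (SE 0.43) and Slc4a1 at 0.44 (SE 0.38). Car1 was at 1.14 (SE 1.02), and its summed counts gave a ratio of 1.74 (95% exact interval 0.959 to 3.35), against 0.400 (0.161 to 0.952) without KI ASK1i replicate 5. For Gata1 the ratio was 0.522 (0.342 to 0.795), and 1.0 (0.583 to 1.79) without KI control replicate 2. The difference between the diet effects of the genotypes was 2.18 (SE 0.53, edgeR adjusted p = 0.317) for Slc4a1 and -2.27 (SE 0.58, edgeR adjusted p = 0.328) for Nfe2. In edgeR no gene of 14934 passed that test (0%), and 1251 had an unadjusted p under 0.05. DESeq2 passed Slc4a1 (2.19, adjusted p = 0.0488), whose adjusted p ran from 0.0488 to 1 over 46 alternatives. In edgeR the diet effect on Nfe2 and Slc4a1 was not shown to differ between genotypes.

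The sexes were unequal between groups, and Car2 and Alas2 differed by sex in WT liver. In WT control, Car2 measured 10.2, 14.9 and 14.4 CPM in males, against 22.5, 35.1 and 39.6 CPM (lowest, median and highest of 7) in females. Alas2 went the other way, with 31.4, 25.8 and 22.4 CPM in males, against 8.78, 12.1 and 21.4 CPM in females. Neither gene overlapped between the sexes of this group. Of the 3 WT control males 2 carried P titles and no female did. In WT ASK1i the sexes overlapped, at 12.2 to 42.6 CPM in males and 38.7 to 57.5 CPM in females for Car2, and at 8.36 to 40.5 CPM in males and 6.78 to 11.7 CPM in females for Alas2.

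Over all groups, male against female gave a log2 fold change of -0.73 (SE 0.16, edgeR adjusted p = 0.0155) for Car2, the 1 gene of 6 to pass where 1.49% of all genes did, 0.783% upwards and 0.703% downwards. Fitted within WT, a split chosen after seeing the data, Car2 was lower in males, at -1.005 (SE 0.21, edgeR adjusted p = 0.00956) and Alas2 higher, at 0.996 (SE 0.23, edgeR adjusted p = 0.0193), where 1.85% of genes passed. Without WT control replicate 8 neither passed, and without WT ASK1i replicate 2 Alas2 did not. Car1 was at 1.05 (SE 0.45, edgeR adjusted p = 0.231), and passed without KI ASK1i replicate 5, at 1.02 (SE 0.29, edgeR adjusted p = 0.0452). Over the 18 fits that left out a WT library the log2 fold changes ran from -1.16 to -0.88 for Car2 and from 0.69 to 1.12 for Alas2, with highest edgeR adjusted p of 0.0516 and 0.0857.

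In KI liver the sexes overlapped. Car2 measured 10.6 to 25.8 CPM in males and 12.3 to 29.9 CPM in females of KI ASK1i, and Alas2 11.4 to 13.5 CPM in males and 8.84 to 17.4 CPM in females. The 1 female of KI control had 20.8 CPM of Car2 and 12.0 of Alas2, inside the ranges of the 4 males. Fitted within KI, the log2 fold changes of males against females were -0.38 (SE 0.23, edgeR adjusted p = 0.767) for Car2 and -0.12 (SE 0.26, edgeR adjusted p = 0.975) for Alas2, where 0.187% of genes passed. The difference between the genotypes' sex effects was -1.11 (SE 0.35) for Alas2 and 0.62 (SE 0.31) for Car2, and did not pass for either (edgeR adjusted p = 0.290 and 0.571), where 0.0067% of genes did. Nfe2 was the gene of 6 that passed between title sets, higher in P titles by 1.01 (SE 0.32, edgeR adjusted p = 0.0330), where 14.1% of genes passed, 6.88% upwards and 7.24% downwards. In KI ASK1i it measured 9.66 to 13.4 CPM in 4 P titles and 0.579 to 18.9 CPM in 6 numbered titles, and in KI control 6.39 CPM in 1 P title, inside the 4.81 to 10.7 CPM of 4 numbered titles. In WT ASK1i it measured 2.60 and 5.78 CPM in P titles and 0.653 to 2.65 CPM in numbered titles, and in WT control 0.706 and 0.922 CPM in P titles and 0.236 to 0.448 CPM in numbered titles. The sets separated in WT control alone.

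**Figure D3:**
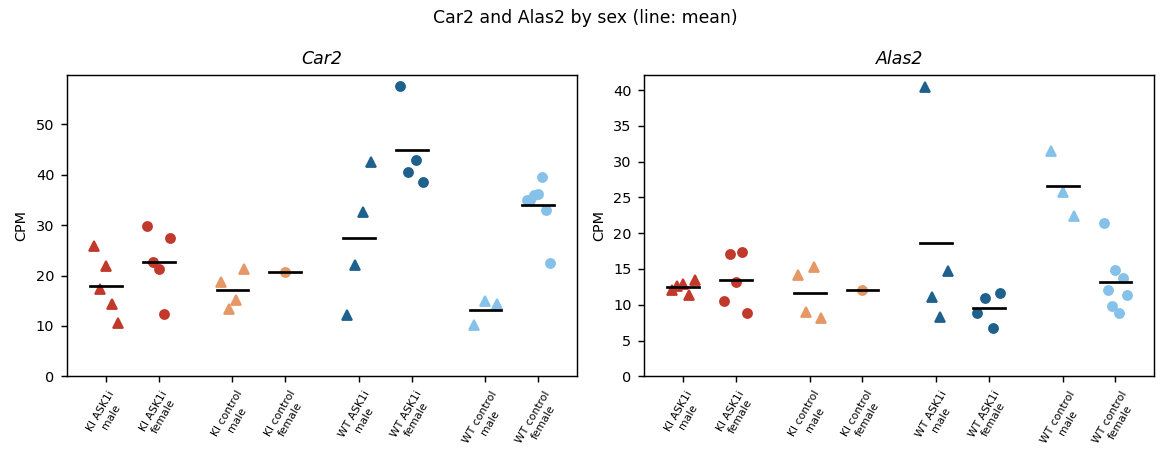
CPM of Car2 and Alas2 by group and sex, males left of females; points are libraries and lines are means. In WT control the 3 males lie below all 7 females for Car2 and above all 7 for Alas2.

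Lists of red cell genes, chosen with results of these data known, were read beside the 7 genes. Haem synthesis enzymes fell nearly as one in KI control against WT control, with 11 of 12 lower and a median log2 fold change of -0.48. Over all genes 28.9% fell there. Cpox, which oxidises coproporphyrinogen, averaged 37.7 CPM in KI control and 143 CPM in WT control (-1.76, SE 0.28). Fech, which puts iron into haem, was at -0.71 (SE 0.13) and Urod at -0.52 (SE 0.08). Alas1, the first enzyme in hepatocytes, was the exception at 0.08 (SE 0.34, edgeR adjusted p = 0.861), and was singled out after its value was seen. On the inhibitor diet 11 of 12 were again lower in KI ASK1i than in WT ASK1i, where 28.8% of all genes fell. Hepatocytes make haem as well. Of 8 hepatocyte and bile duct markers 4 fell and 1 rose in KI control, a share close to the 56.7% of all genes that passed in either direction. Their sum ran from 23168 to 43076 CPM in KI control, against 97164 to 125380 CPM in WT control. Alb, serum albumin, was at -1.54 (SE 0.20). The part of hepatocytes in the haem synthesis values was not tested.

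The 3 haemoglobin genes tested had a median log2 fold change of -0.79 in KI control against WT control, and 1 of them passed. Hba-a2 averaged 130 CPM in KI control and 230 CPM in WT control (-0.79, SE 0.32, edgeR adjusted p = 0.0367), with all 5 KI control libraries below the WT control mean. Its call ended on leaving out any 1 of 6 libraries: KI control replicates 3, 4 and 1P, or WT control replicates 1, 8 and 1P (-0.88 to -0.60, edgeR adjusted p from 0.0190 to 0.116). The other genes of the list that could be tested were named after their values were seen. Hbb-bs was at -0.45 (SE 0.30, edgeR adjusted p = 0.211) and Hbb-bt at -0.79 (SE 0.36, edgeR adjusted p = 0.0614). Leaving out single libraries gave 0 to 2 calls among the 3, and 10 libraries changed the count. On the inhibitor diet none of the 3 passed, with a median of 0.30. Near-identical globin copies share reads, so they are uncertain one by one. Over all genes 27.8% rose and 28.9% fell in this comparison. Of red cell membrane genes 1 of 10 rose and 4 fell in KI control, Cd59a, Xk, Gypc and Sptb, and of late red cell precursor genes 1 of 11 rose and 5 fell. The 6 calls of the second list became 2 to 8 on leaving out single libraries, with KI control replicates 1, 4 and 1P and WT control replicate 2P moving the count by over 1.5 times. The 6 of 11 are close to the 56.7% of all genes that passed. Gypc, glycophorin C, averaged 8.04 CPM in KI control and 14.8 CPM in WT control (-0.84, SE 0.17). In the WT ASK1i libraries, 2 of 18 genes of each of these lists had no count in any library.

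Of transcription factors of blood precursors 7 of 15 rose, none fell and 8 did not pass in KI control, with a median of 0.42, where 27.8% of all genes rose and 28.9% fell. In KI ASK1i against WT ASK1i 8 rose and 1 fell, with a median of 0.35. Myb, a factor of dividing precursors, averaged 3.50 CPM in KI control and 0.0657 CPM in WT control (5.24, SE 0.71), Lyl1 2.54 (SE 0.35) and E2f2 3.02 (SE 0.43) on the log2 scale, and Lmo2, a partner of Gata1, 1.09 (SE 0.23). These 4 had all 5 KI control libraries above all of WT control. Of genes of erythropoietin signalling 4 of 11 rose and 2 fell, among them Socs3 (2.53, SE 0.35) upwards and Stat5a (-1.03, SE 0.20) downwards. That share is close to the 56.7% of all genes that passed in either direction.

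Among relatives of the 7 genes, the carbonic anhydrases split in KI control against WT control, where 27.8% of all genes rose and 28.9% fell. Of 10 tested, 5 fell in KI control, with Car3 at -8.80 (SE 1.66), Car8 at -1.62 (SE 0.29) and Car14 at -1.80 (SE 0.35), and 2 rose, with Car13 at 1.87 (SE 0.33). Of 7 Slc4 transporters 2 rose, Slc4a8 (1.86, SE 0.28) and Slc4a5 (1.93, SE 0.42), and 1 fell, Slc4a2 (-0.28, SE 0.09). Of 15 relatives of Gata1, Nfe2 and Klf1 5 rose and 3 fell, with Klf6 at 1.66 (SE 0.17), Klf2 at 1.08 (SE 0.18), Gata6 at 0.59 (SE 0.13) and Gata2 at 0.96 (SE 0.23), again a share close to the 56.7% of all genes. Haemoglobin and haem clearance genes had 7 of 10 higher, with haptoglobin (Hp) at 2.25 (SE 0.30), haemopexin (Hpx) at 2.29 (SE 0.28) and Hmox1, which breaks haem down, at 1.43 (SE 0.20).

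Markers of other blood cells and of Kupffer cells and macrophages were higher in KI liver. All 12 tested megakaryocyte and platelet genes rose in KI control against WT control, with a median of 3.33, where 27.8% of all genes rose. So did 8 of 9 of mast cells, basophils and eosinophils (median 5.30), 12 of 12 of neutrophils (median 7.31) and 9 of 9 of Kupffer cells and macrophages (median 1.77). Summed neutrophil genes ran from 763 to 3946 CPM in KI control, against 11.1 to 30.7 CPM in WT control, and summed megakaryocyte genes from 63.8 to 136 CPM, against 22.4 to 40.2 CPM. In KI ASK1i replicate 5, with the lowest Nfe2 of the KI libraries, summed neutrophil genes were at 8.56 CPM. The part of these cells in the Nfe2 and Gata1 values of KI liver was not tested.

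**Figure D4:**
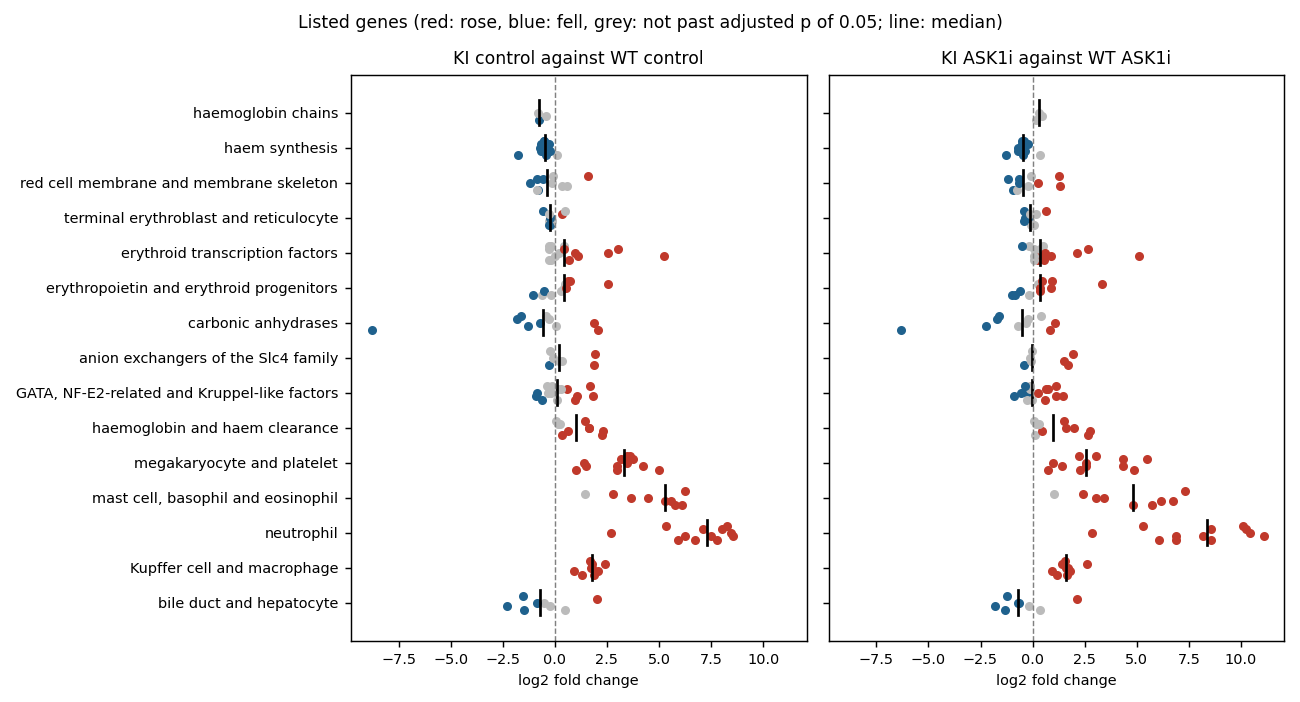
Log2 fold changes of the listed genes tested, by list, for KI control against WT control (left) and KI ASK1i against WT ASK1i (right); red points rose, blue fell, grey did not pass, and the black line is the list median. Haem synthesis genes lie mostly left of 0, erythroid transcription factors have medians of 0.42 and 0.35, and the lists of megakaryocytes, mast cells, neutrophils and Kupffer cells lie right of 0.

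Within groups, the list with the highest r differed from gene to gene. After group, sex and title set were taken out of log2 values, each gene was set against the summed level of each list and against the other 6 genes over 33 libraries, 126 relations in all, with 100000 permutations of libraries and Benjamini-Hochberg adjustment over the 126. The smallest p that they can give is 1e-05. Of the 126, 34 had an adjusted p of r under 0.05, and differences between lists were not tested. Alas2 went with haemoglobin (Pearson's r = 0.703, permutation p = 2e-05, adjusted 0.00126; Spearman's rho = 0.772, permutation p = 1e-05, adjusted 0.00126), and r was 0.659 without the 2 farthest libraries. It was 0.672 in KI without replicate 5 (n = 14) and 0.687 in WT (n = 18). Here and below, such values leave libraries out of residuals from the fit over all 33. Replicate 5 thus still weighed on the KI ASK1i mean that was taken out. With the residuals fitted anew without replicate 5, r over the remaining libraries was 0.677.

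Nfe2 went with neutrophil genes (r = 0.782, permutation p = 1e-05, adjusted 0.00126; rho = 0.591, permutation p = 0.00037, adjusted 0.0117), and r was 0.477 without the 2 farthest libraries. It was 0.824 in KI without replicate 5 and 0.239 in WT. With the residuals fitted anew without replicate 5, r over the remaining libraries of both genotypes was 0.548. Gata1 went with megakaryocyte and platelet genes (r = 0.652, permutation p = 4e-05, adjusted 0.00126). In rho this was 0.520 (permutation p = 0.0022, adjusted 0.0418). Its r was 0.477 without the 2 farthest, 0.835 in KI without replicate 5 and -0.003 in WT, where Gata1 had few counts. Fitted anew without replicate 5, this r was 0.566 over the remaining libraries. Nfe2 and Gata1 shared these lists: Nfe2 had r = 0.667 with megakaryocyte genes (permutation p = 0.00023, adjusted 0.00263; rho = 0.372, permutation p = 0.0328, adjusted 0.148), at 0.275 without the 2 farthest. Gata1 had r = 0.605 with neutrophil genes (permutation p = 0.00023, adjusted 0.00263; rho = 0.564, permutation p = 0.00081, adjusted 0.0204), at 0.443 without the 2 farthest. With the mast cell list r was 0.707 for Nfe2 and 0.561 for Gata1, and with the Kupffer cell list 0.585 and 0.555 (permutation p adjusted 0.00189, 0.00984, 0.0146 and 0.0103). In rho these were 0.434, 0.470, 0.318 and 0.491 (permutation p adjusted 0.0743, 0.0495, 0.227 and 0.0433).

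Klf1 went with the haem synthesis sum (r = 0.617, permutation p = 0.00014, adjusted 0.00238). In rho this was 0.618 (permutation p = 0.00018, adjusted 0.00756), and r was 0.561 without the 2 farthest, 0.498 in KI without replicate 5 and 0.636 in WT. Genes of high level weigh most in a sum. Alas1 averaged 417 CPM in KI control and 413 CPM in WT control, where the sums had medians of 936 and 1039 CPM. The part of Alas1 in this r was not tested. With haemoglobin the r of Klf1 was -0.313 (permutation p = 0.0748, adjusted 0.168) and the rho -0.289 (permutation p = 0.101, adjusted 0.289). This r was -0.435 without the 2 farthest, -0.577 in KI without replicate 5 and -0.447 in WT. Car1 went with the summed carbonic anhydrase list, which leaves out Car2 (r = 0.771, permutation p = 3e-05, adjusted 0.00126). In rho this was 0.648 (permutation p = 6e-05, adjusted 0.00378), and r was 0.545 without the 2 farthest, 0.0832 in KI without replicate 5 and 0.847 in WT. Fitted anew without replicate 5, this r was 0.523 over the remaining libraries. Car3, a gene of this sum, averaged 0.701 CPM in KI control, at a log2 fold change of -8.80 against WT control. The sum had medians of 62.1 CPM in KI control and 353 CPM in WT control. The part of Car3 in this r was not tested. With Car2 itself, Car1 had r = -0.310 (permutation p = 0.0811, adjusted 0.179), at -0.0142 in KI without replicate 5 and -0.551 in WT. Slc4a1 went with late precursor genes (r = 0.542, permutation p = 0.00125, adjusted 0.00984). In rho this was 0.501 (permutation p = 0.00329, adjusted 0.0418), and r was 0.496 without the 2 farthest, 0.427 in KI without replicate 5 and 0.516 in WT. Of the 18 genes in this sum, 11 had enough counts to test. In KI control Bnip3l averaged 82.7 CPM and Prdx2 73.0 CPM, where the sum had a median of 389 CPM. The part of such genes of high level in this r was not tested. Car2 had its highest r with the Slc4 family (r = 0.434, permutation p = 0.0117, adjusted 0.0438; rho = 0.429, permutation p = 0.0131, adjusted 0.075), at 0.341 without the 2 farthest, 0.367 in KI without replicate 5 and 0.484 in WT. Car2 and Alas2 went against each other (r = -0.640, permutation p = 7e-05, adjusted 0.00176; rho = -0.503, permutation p = 0.00292, adjusted 0.0418), at -0.438 without the 2 farthest, -0.642 in KI without replicate 5 and -0.647 in WT. Differences between the KI and WT values of r were not tested.

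**Figure D5:**
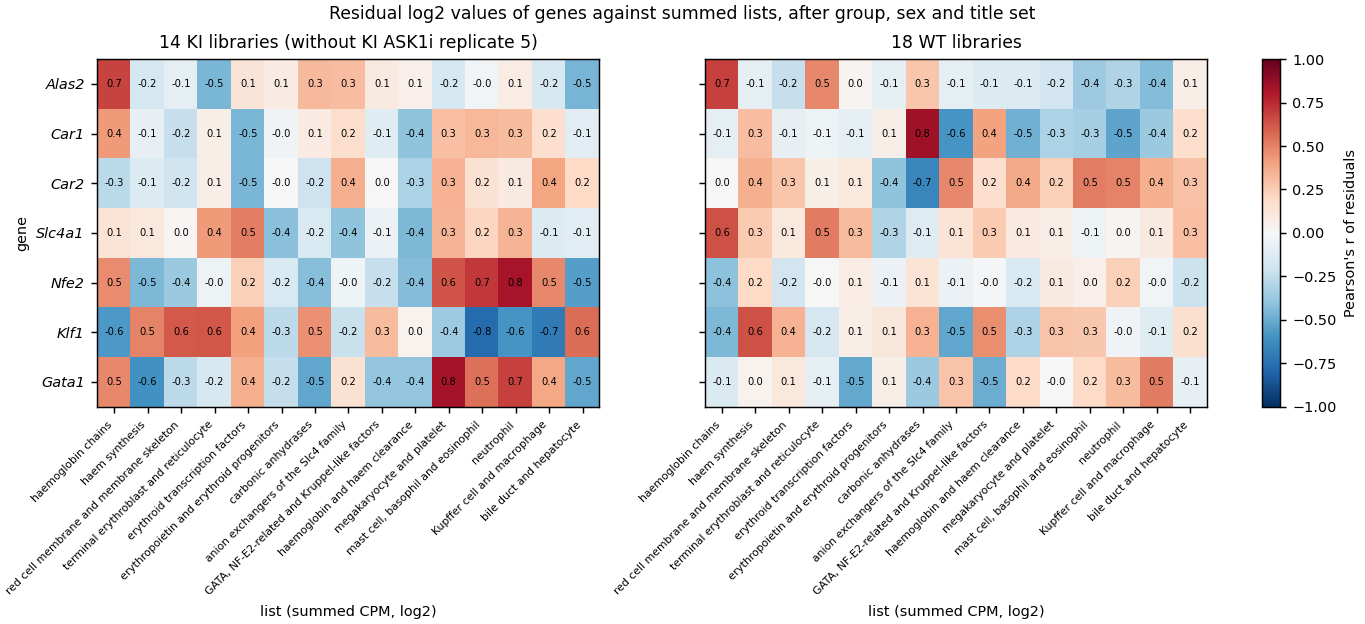
Pearson's r between each gene and the summed level of each list, in 14 KI libraries without KI ASK1i replicate 5 (left) and 18 WT libraries (right). Group, sex and title set were taken out of log2 values in a fit over all 33 libraries, replicate 5 among them. Alas2 has its highest r with haemoglobin in both, and Nfe2 has 0.824 with neutrophil genes in KI and 0.239 in WT.

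Among 12064 genes that averaged 1 CPM or more, those whose residuals were most like each gene's differed from one to the next. For Alas2 they included Zbtb24 (r = 0.777) and Hbb-bt (0.731), a beta-globin. For Klf1 they were Cyp2d22 (0.880), a cytochrome P450, Echs1 (0.871), an enzyme of fatty acid oxidation, and Dcxr (0.857), a sugar reductase. For Car2 they were Sult2a3 (0.772), a sulfotransferase, Amigo2 (0.710) and Naalad2 (0.681). For Nfe2 they were Rasgrp4 (0.817), a signalling protein of mast cells and neutrophils, Map3k9 (0.803) and Ugt1a7c (0.802), and their r was 0.601 to 0.638 without replicate 5. For Gata1 they were Aurka (0.761), a mitotic kinase, Ino80c (0.737) and Ppbp (0.735), a platelet chemokine. For Slc4a1 they were Gtf2h1 (0.669), Arglu1 (0.652) and Mgat4b (0.650), and for Car1 Cdadc1 (0.824), Paics (0.819) and Bcap31 (0.809), which were at 0.527 to 0.606 without replicate 5. These likenesses over 33 libraries are descriptions, the highest of many computed, and carry no test.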

How the data were processed

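RNA-seq of polyadenylated liver RNA was analysed in 33 libraries. The authors deposited expected counts per gene. The submitters' processing notes name CASAVA 1.8.2, STAR 2.4, RSEM 1.2.14 and build mm10, and whether the counting used strand is not given in the sources used here. Of these expected counts 91.4 to 93.7% per library were whole, and all were rounded.

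Genes were filtered by expression in edgeR 4.0.16 (R 4.3.3, limma 3.58.1), which left 14934 of 19169 genes, Gata1 not among them. One quasi-likelihood model with TMM scaling held group, sex and title set over all 33 libraries. P-values were adjusted by Benjamini-Hochberg over all genes tested, with a threshold of 0.05. Fold changes are on a scale with a prior count of 0.125. Ratios of summed low counts have exact conditional 95% intervals that cover counting error only. Model code was tested on simulated data.

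The 7 genes, the 15 lists and the tests were chosen with earlier results of these data known. Named genes were the 7, Nlrp3, the called genes of each list with the 4 smallest p in KI control against WT control, and the 3 genes most like each of the 7. Some genes that this rule names are not reported here. No library repeated another: chi-square per gene was at least 23.6 in each of 128 pairs of the same group. Alternatives were library totals, other filters, DESeq2 1.42.0, limma-voom, other covariates, subsets and leaving out each library. The fits within L codes, with neutrophil genes, with the column header code and with sex within genotype were chosen after seeing the data.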

Additional observations from a re-analysis of the deposited data

Results flagged for a closer look

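Of 28 sets of gene and group, 7 had a library far from the rest by Dixon's test on CPM, each time the highest. Chance flags about 1 in 20 groups of normally distributed values, a rate that need not hold for CPM or low counts. Car1 was at 1.16 CPM in KI ASK1i replicate 5, the highest of its group, and at 0.289 CPM in KI control replicate 2, again the highest. In WT ASK1i replicate 2 Car1 was at 8.58 CPM and Alas2 at 40.5 CPM, the highest of that group for both genes. Nfe2 was at 5.78 CPM in WT ASK1i replicate 1P, above the other 7 libraries. Gata1 stood highest at 0.456 CPM in KI ASK1i replicate 2 and at 0.246 CPM in WT control replicate 4.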

How the results depend on the processing

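Of 6 genes tested, 4 passed in KI control against WT control, and 2 did with the L code in the model, with the replicate block and in females alone; leaving out 1 library gave 3 to 5. In KI ASK1i against WT ASK1i 3 of the 5 passed in males alone and 3 in females alone, and 5 on leaving out any library. In WT ASK1i against WT control 1 passed with a filter of 1 CPM in 5 libraries, where Slc4a1 was not tested. There 0 passed with the L code, in numbered titles, in males, in females or in L6 alone. DESeq2 passed 1 in the difference of diet effects. Between sexes 2 passed with limma-voom, 2 within WT, and 0 with the L code, with the replicate block, in numbered titles or within KI; leaving out libraries gave 1 to 2, with 2 without KI ASK1i replicate 5. Between title sets 0 passed with library totals, in males or in females, and 0 to 1 on leaving out libraries, with 0 without WT ASK1i replicates 6, 1P and 2P, WT control replicates 1P and 2P or KI ASK1i replicate 2P, each alone.

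Some log2 fold changes that had not passed changed sign, among them those of 4 of 6 genes in KI ASK1i against KI control and 2 of 6 in the difference of diet effects. Alas2 in KI ASK1i against WT ASK1i was at 0.0605 with library totals, 0.11 with limma-voom, 0.0512 with the L code, 0.0486 with the replicate block, 0.51 in females and 0.52 in L1, and from -0.15 to 0.30 on leaving out libraries. Car2 in KI control against WT control was at 0.43 in males, 0.16 with only these groups fitted, and from -0.33 to 0.0279 on leaving out libraries. Car1 in WT ASK1i against WT control was at -0.94 in males, -0.21 in L6 and -0.26 with neutrophil genes in the model. The cause was not tested.

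Replicate numbers were not taken to pair the libraries in the main model. Same-numbered pairs had a correlation over 0.1 more often than other pairs, and these values do not settle whether the numbers pair libraries. Same-numbered libraries had a median correlation of 0.022 over 37 pairs, 14 of them over 0.1, against a median of -0.00573 and 70 of 363 over 0.1 for libraries with different numbers, and 4 of 33 libraries correlated best with their own number. With the replicate block, 7493 genes passed in KI control against WT control, in place of 8466. Low counts limit Gata1, Slc4a1 and, in KI liver, Car1.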
